A study of Homo sapiens with 19 samples.

Results

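The secretory granule and neuropeptide genes are 9 genes named by symbol: the granins CHGA, CHGB, SCG2, SCG3, SCG5 and VGF, the granin-like PCSK1N, and the neuropeptide precursors NPY and GAL. They were found by Ensembl gene ID among the 19942 rows of the gene tables and by transcript ID in the table of 256980 transcripts, where they have 33 transcripts. All 9 were measured. The study examined how the stress granule (SG) proteins G3BP1 and G3BP2 act on RNAs in SH-SY5Y cells, a human neuroblastoma line. Poly-A RNA-seq was made of cells given control siRNA (siCtrl), siG3BP1 or siG3BP2. RNA-seq was also made of stressed cells, as cleared lysate (Total) and as SG cores pulled down from that lysate with an anti-G3BP1 antibody (SG). For Total and SG the paper names no RNA selection. rRNA-depleted RNA-seq compared untreated cells with cells given sodium arsenite (AS), an oxidative stressor, at 500 μM for 1 h. G3BP1 and G3BP2 eCLIP, which sequences RNA crosslinked by UV light to an immunoprecipitated protein, was made before and after AS, with 2 libraries for each protein and treatment. Each of the 7 RNA-seq conditions had 1 library. The labels give an AS dose of 50 mM for 1 h for every siRNA, Total, SG and eCLIP library, those named Ctrl and si included. The paper's methods give 500 μM for 1 h as the AS exposure and describe the siRNA treatment without AS. The groups here follow the sample names, and the labelled dose of 50 mM is uncertain.

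Granins are acidic proteins that aggregate in the trans-Golgi network of neurons and endocrine cells and help to form dense-core secretory granules. Neuropeptide precursors enter the same granules, where prohormone convertases cut them and further enzymes trim and amidate the products before regulated exocytosis. SH-SY5Y cells come from a tumour of the sympathetic lineage, in which NPY is stored together with noradrenaline. SGs are cytoplasmic assemblies of untranslated mRNAs and proteins that form under stress. The mRNAs of secreted proteins are usually translated at the endoplasmic reticulum.

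Promoters from RefSeq on GRCh38.p14, covering 250 bases before to 50 after the start, were at hand for 6 of the 9 genes: CHGA, NPY, PCSK1N, SCG3, SCG5 and VGF. The cAMP response element TGACGTCA, a palindrome that reads alike on both strands, was found in CHGA and VGF, 54 and 79 bases before their starts, and in 1.85% of all 35116 promoters. The shorter GC box GGGCGG, or CCGCCC on the other strand, was in all 6 and in 45.0% of all promoters. The windows of CHGA (chr14:92923030-92923159, plus strand) and VGF (chr7:101165560-101165689, minus strand) are shown with the element in capitals, as the 2 genes that hold it. A match describes the letters and is not a bound site.
CHGA: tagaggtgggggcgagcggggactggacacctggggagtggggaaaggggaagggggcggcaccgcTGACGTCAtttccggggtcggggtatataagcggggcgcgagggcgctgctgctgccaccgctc
VGF: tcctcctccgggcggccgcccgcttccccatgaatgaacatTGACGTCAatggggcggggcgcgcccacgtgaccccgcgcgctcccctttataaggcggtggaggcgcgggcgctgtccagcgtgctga

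Exon 3 of CHGA is shown because the 3 member transcripts with the largest gains of reads under AS carry it. Another CHGA transcript that holds it, ENST00000556098, had 0 reads in untreated cells and 1 under AS. It spans chr14:92926605-92926698 on the plus strand of GRCh38, has 94 bases, lies wholly in the coding sequence and is printed in capitals between 20 bases of exon 2 and 20 bases of exon 4, as joined in the canonical transcript ENST00000216492.
CHGA exon 3: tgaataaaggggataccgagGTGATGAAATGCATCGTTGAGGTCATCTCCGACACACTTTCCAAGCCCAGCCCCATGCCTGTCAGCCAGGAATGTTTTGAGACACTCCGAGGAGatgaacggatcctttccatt

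The 5 siRNA, Total and SG libraries had the character of the labelled cell line. Of 9 noradrenergic neuroblastoma markers, 8 were above 1 TPM in each library and the list summed to between 2989.9 and 5311 TPM, while TH, the tyrosine hydroxylase of catecholamine synthesis, stayed at or below 0.389 TPM. None of the 6 markers of other cell types was above 1 TPM, and the highest was 0.870 TPM. The deposited TPM of protein-coding genes summed to between 623955 and 735927 per library and carry no read depth. The eCLIP numbers summed to between 4268911 and 26179736 per library. For the rRNA-depleted libraries, the value that 1 read adds implies 13291958 reads without AS and 11281587 with AS.

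Most of these mRNAs were abundant. In siCtrl the 9 genes together held 0.363% of the protein-coding TPM, and VGF, NPY, CHGA and PCSK1N ranked 127, 141, 246 and 260 among all genes. VGF, a granin whose fragments act as peptides, had 699 TPM in siCtrl, 522 in siG3BP1, 644 in siG3BP2, 229.9 in Total and 371 in SG. NPY, the precursor of neuropeptide Y, had 621, 588, 722, 317 and 42.0 TPM in the same order. These 2 genes changed places between libraries, so that no order between them can be given.

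CHGA, the classic granin of chromaffin granules and a plasma marker of neuroendocrine tumours, had 365 TPM in siCtrl, 309 in siG3BP1, 387 in siG3BP2, 194 in Total and 164 in SG. PCSK1N, whose product proSAAS inhibits the convertase PC1/3, had 346, 330.1, 331, 241 and 56.2 TPM. CHGA and PCSK1N also changed places. GAL, the precursor of galanin, had 181, 198, 238, 197 and 37.5 TPM, below both in the 3 siRNA libraries. SG held the lowest of the 5 values for NPY, PCSK1N and GAL, and by a small margin for CHGA.

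The other 4 genes were lower. SCG2, the precursor of secretoneurin, had 66.6 TPM in siCtrl, 60.4 in siG3BP1, 54.7 in siG3BP2, 14.4 in Total and 45.8 in SG. CHGB, the second chromogranin, had 41.3, 37.5, 39.3, 16.7 and 44.2 TPM, and SCG3, which tethers granins to the granule membrane, had 27.0, 22.1, 26.0, 16.6 and 19.8 TPM. SCG2, CHGB and SCG3 kept this order in the 3 siRNA libraries. SCG5, whose product 7B2 is the chaperone of the convertase PC2, was lowest of all with 1.26, 6.79, 9.17, 4.73 and 3.75 TPM, and its siCtrl value was the lowest of its 5.

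**Figure D1:**
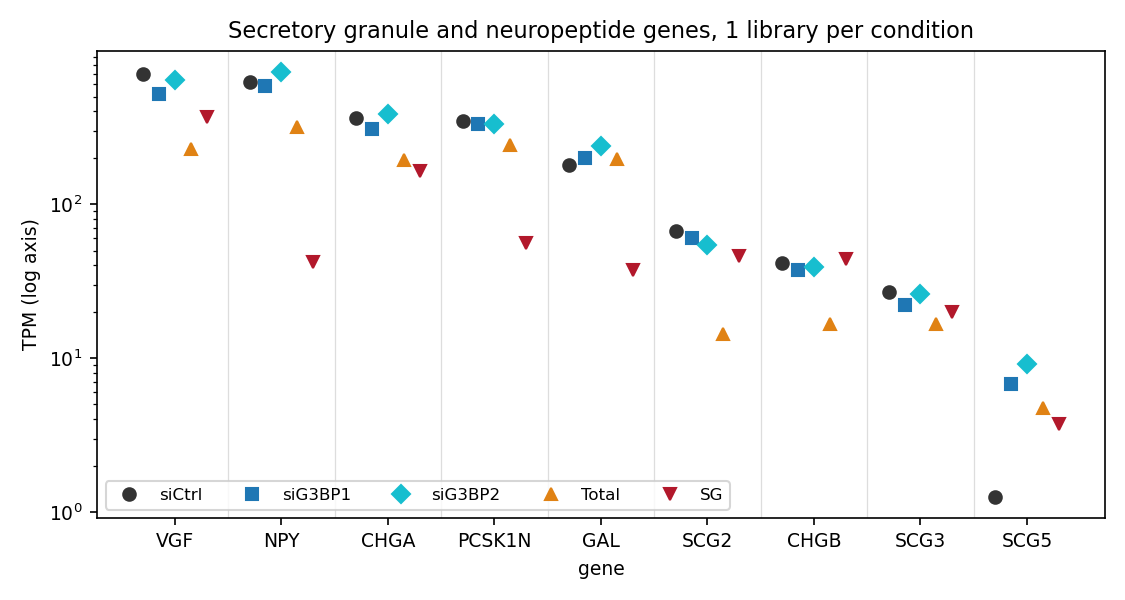
TPM (log axis) of the 9 genes in the 5 siRNA, Total and SG libraries, 1 point per library, genes ordered by their siCtrl level. The SG points of NPY, PCSK1N and GAL lie at 42.0, 56.2 and 37.5 TPM, below all other points of these genes, and the siCtrl point of SCG5 lies at 1.26 TPM, below its other points.

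The genes lie on 7 chromosomes of GRCh38 and differ in size. On chromosome 7 are VGF (ENSG00000128564, 101162509 to 101165569, minus strand) and NPY (ENSG00000122585, 24284188 to 24291862, plus strand), and on chromosome 15 SCG3 (ENSG00000104112, 51681492 to 51721026, plus strand) and SCG5 (ENSG00000166922, 32641676 to 32697098, plus strand). CHGA (ENSG00000100604) is on chromosome 14 from 92923150 to 92935285 and CHGB (ENSG00000089199) on chromosome 20 from 5911510 to 5925353, both on the plus strand. SCG2 (ENSG00000171951) is on the minus strand of chromosome 2 from 223596940 to 223602361. PCSK1N (ENSG00000102109) is on the minus strand of chromosome X from 48831096 to 48835610, and GAL (ENSG00000069482) is on the plus strand of chromosome 11 from 68683779 to 68691175. The canonical transcripts run from 555 nt in NPY and 749 nt in GAL to 2551 nt in VGF and 3160 nt in SCG3. Their GC content runs from 40.9% in SCG3 to 70.5% in VGF and 74.2% in PCSK1N, around a median of 49.1% over 19701 coding genes. SCG5 lies within the readthrough gene ARHGAP11A-SCG5 on the same strand, and reads of the SCG5 exons cannot be assigned to 1 of the 2 genes.

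The knockdown libraries address whether G3BP1 or G3BP2 sets the steady-state level of these mRNAs. G3BP1 itself went from 18.7 TPM in siCtrl to 5.996 in siG3BP1 and was 16.5 in siG3BP2, and G3BP2 went from 38.1 to 11.4 in siG3BP2 and was 39.4 in siG3BP1. A gene was called when the ratio of TPM + 1 was above 2 or below 0.5 with more than 1 TPM in the higher library. With 1 library per condition there is no replicate check and no test, and in bulk RNA fewer cells making an mRNA and less of it per cell cannot be told apart.

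SCG5 was the only member called. It was higher in siG3BP1, where 1.12% of 12280 genes were called higher, with a fold of 3.45 on the TPM + 1 scale, and in siG3BP2, where 1.23% of 12229 were, with a fold of 4.50. Both comparisons use the same siCtrl library, in which SCG5 had 1.26 TPM against 3.75 to 9.17 TPM in the other 4 libraries, so they are not independent. No member was called lower, among 1.98% and 2.89% of all genes.

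The other 8 genes had TPM ratios to siCtrl between 0.748 and 1.32. VGF was 0.748 in siG3BP1 and 0.921 in siG3BP2, and GAL was 1.10 and 1.32. NPY was 0.948 and 1.16. The median log2 ratio of the 9 genes was −0.13 in siG3BP1 and −0.05 in siG3BP2, beside −0.08 and −0.12 over all genes tested. After the median of all genes was set to no change, PCSK1N and NPY in siG3BP1 and CHGB, PCSK1N, SCG3 and VGF in siG3BP2 changed sign, so no direction is given for them.

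The SG and Total libraries address which of these mRNAs were taken into SG cores. SCG2 and CHGB were SG-enriched, with 3.18 and 2.65 times as many TPM in SG as in Total. NPY, GAL and PCSK1N, the members with the shortest canonical transcripts, were SG-depleted, with ratios of 0.133, 0.190 and 0.233. VGF (1.61), SCG3 (1.20), CHGA (0.843) and SCG5 (0.793) fell in neither class. So 2 of 9 members were enriched where 62.9% of 13560 genes were, and 3 were depleted where 9.45% were.

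The 9 genes had a median log2 ratio of −0.24 on the TPM + 1 scale, and all genes tested had 1.51. Against that median of all genes, SCG2 lay at 0.09, CHGB at −0.16 and VGF at −0.83, and SCG3, CHGA and SCG5 lay between −1.78 and −1.27. PCSK1N lay at −3.60, GAL at −3.88 and NPY at −4.40, in the lowest 3.62%, 2.82% and 1.71% of genes. The call of SCG2 and CHGB therefore depends on scaling. With the median ratio of genes above 1 TPM in both libraries set to 1, their log2 ratios were 0.19 and −0.06, no member was enriched, and 6 were depleted: CHGA, GAL, NPY, PCSK1N, SCG3 and SCG5. The same step moved the calls over all genes from 8528 enriched and 1282 depleted to 4505 and 3271.

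NPY, GAL and PCSK1N made up 61.3% of the members' summed TPM in Total and 17.3% in SG. Their sum went from 755 TPM in Total to 136 in SG, while that of the other 6 genes went from 477 to 648. The share of all 9 in the protein-coding TPM was 0.197% in Total and 0.107% in SG.

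The order of the members in SG cores tended to follow transcript length. Over the 9 genes Spearman's rho between the length of the longest transcript and the log2 ratio was 0.833, and over 13548 genes it was 0.632, both given as descriptions across genes of the same 2 libraries. Each member was then set beside genes whose longest transcript was within 20% of its own. SCG2 was above 79.7% of 2446 such genes, CHGB above 72.6% of 2455 and SCG5 above 64.1% of 690.

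The 3 depleted genes were in the lower part even among short transcripts. NPY was above 18.3% of 268 genes of its length, PCSK1N above 22.7% of 532 and GAL above 28.4% of 285, and 53.0%, 52.1% and 57.5% of these genes were depleted too. SCG3, the longest member, was above 20.7% of 2995 genes of its length, CHGA above 35.0% of 1867 and VGF above 46.1% of 2552. The members thus lay on both sides of genes of like length.

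**Figure D2:**
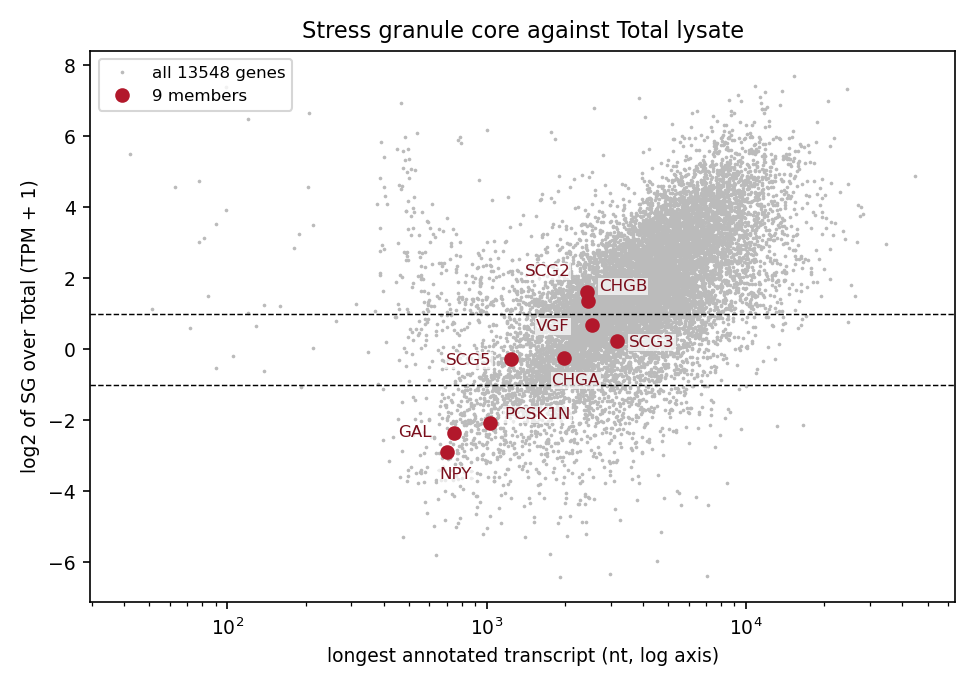
log2 of SG over Total (TPM + 1) against the length of the longest annotated transcript (nt, log axis) for all 13548 genes (grey) and the 9 members (red), with dashed lines at a fold of 2 and 0.5. NPY, GAL and PCSK1N lie at the short end at −2.88, −2.36 and −2.08, and SCG2 and CHGB lie above the upper line at 1.61 and 1.36.

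Total and siCtrl are RNA-seq libraries of cleared lysate and of whole cell RNA. They differ in siRNA, stress and lysis at once, and these cannot be told apart. Whether their library preparation also differed is not stated in the paper. SCG2, VGF and CHGB were lower in Total, with TPM ratios of 0.216, 0.329 and 0.404, where 19.6% of 12173 genes were called lower. With the median ratio set to 1 the log2 ratio of CHGB was −0.87 and only SCG2 and VGF were called lower. SCG5 was higher at 3.75, where 1.28% were. NPY (0.510), CHGA (0.533), SCG3 (0.614) and PCSK1N (0.697) were under 1 without a call, and GAL was 1.09. The median ratio over all genes above 1 TPM in both libraries was 0.750. SCG2 and CHGB, the members called enriched in SG, thus also had low Total values, and against siCtrl their SG levels were 45.8 beside 66.6 and 44.2 beside 41.3 TPM.

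The rRNA-depleted libraries address how RNA levels changed under AS. The value of a transcript times its length fell on whole multiples of 1 number per library, from which reads were recovered. A read can count for several transcripts of a gene, as the recovered reads sum to 24344538 and 24392520. Of the 33 member transcripts 20 were above 1 in either library. Of these, 2 were called higher, both of CHGA, where 1.51% of 100705 transcripts were, and none was called lower, where 0.47% were.

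ENST00000553866, a CHGA transcript without a defined coding sequence that starts in exon 1, skips exon 2 and ends in an exon of its own after exon 6, went from 49 reads (95% Poisson interval 36.3 to 64.8) to 423 (384 to 465). ENST00000334654, a coding transcript that lacks exon 6, went from 367 reads (330.4 to 407) to 756 (703 to 812). The canonical ENST00000216492 went from 692 (641 to 746) to 1158 (1092 to 1227), a ratio in value of 1.97 that lies just under the threshold. These intervals cover counting error only. The 3 values lay at percentiles 99.98, 99.4 and 98.2 of all transcripts tested.

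The other CHGA transcripts moved little. ENST00000556076, a nonsense-mediated decay transcript that joins exon 2 to exon 4, had 121 and 137 reads, and ENST00000556876, which retains sequence after exon 7, had 118 and 112. ENST00000556098, which retains sequence before exon 3 and also holds exon 3 joined to part of exon 4, had 0 and 1. The 3 transcripts with gains of 374, 389 and 466 reads share exon 3 joined to exons 4 and 5, and the nonsense-mediated decay transcript lacks exon 3. Summed over its transcripts, CHGA had a value ratio of 2.38. A read that fits several transcripts can enter this sum, and the gains above, more than once. The canonical transcript alone had a ratio of 1.97.

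No other member had a difference of that size. The 15 tested transcripts of CHGB, GAL, NPY, PCSK1N, SCG2, SCG3 and VGF had value ratios between 0.713 and 1.23, around a median of 1.19 over 88770 transcripts above 1 in both libraries. As 1 read adds more value in the AS library, equal reads give a value ratio of about 1.18. SCG3 ENST00000542355, with 371 reads in each library, had this ratio. The canonical VGF transcript had 2464 reads in untreated and 2460 in AS-treated cells, and that of NPY had 78 and 79. The canonical SCG3 transcript had 575 and 598 reads, that of SCG2 373 and 359, and that of PCSK1N 192 and 150. Relative to the median, the 3 CHGA transcripts had ratios of 8.55, 2.04 and 1.66, and with that median set to 1 only ENST00000553866 was called.

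SCG5 was listed at 0 in both libraries for all 9 of its transcripts, and so were all 8 transcripts of ARHGAP11A, which shares the readthrough gene with it. As the poly-A libraries had up to 9.17 TPM of SCG5, these zeros are not read as absence. In the gene sums, where a read can count more than once, the value ratio was 1.22 for GAL and 1.20 for SCG3. It was 1.18 for NPY and for VGF, 1.05 for CHGB, 0.927 for SCG2 and 0.920 for PCSK1N, where equal reads give about 1.18.

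**Figure D3:**
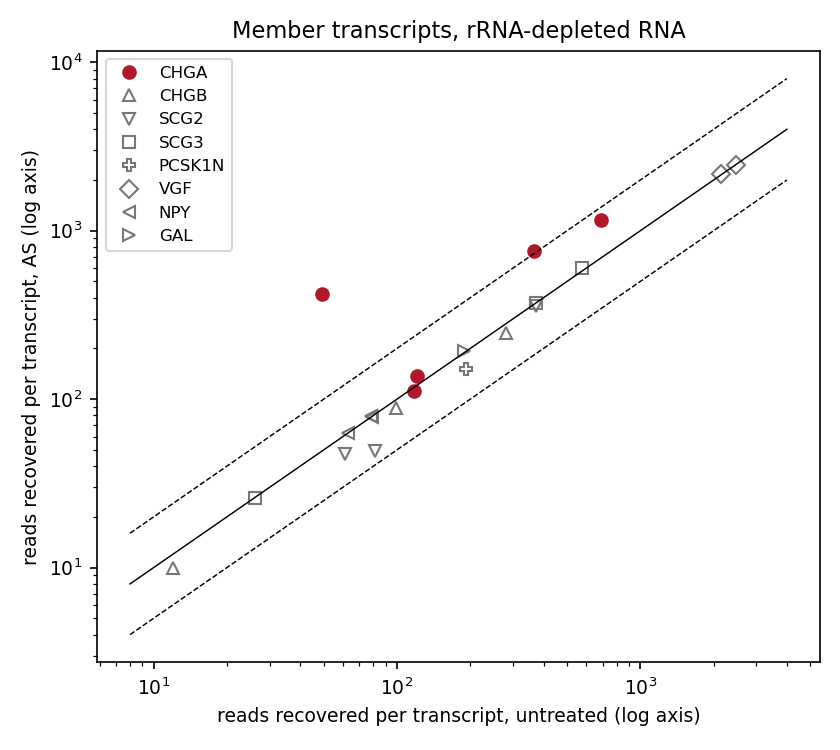
Reads recovered per member transcript in untreated (x) and AS-treated cells (y), both on log axes, with equality (solid) and a fold of 2 in reads (dashed). The 3 CHGA transcripts (red) with 49, 367 and 692 reads in untreated cells lie above the line of equality at 423, 756 and 1158, and SCG5, at 0, is not drawn.

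eCLIP addresses whether G3BP1 and G3BP2 were crosslinked to these RNAs and whether AS changed it. The size-matched input (SMInput) libraries, which the paper used to remove background, were not set beside these numbers. A number above 0 therefore does not by itself show crosslinking. The deposited values are whole numbers, plus 1, on a log10 scale, and the sources used here do not say which processing steps the number includes. The column headers speak of peaks, but the numbers sum to at least 4268911 per library, so what 1 unit of the number counts is uncertain. In the order of G3BP1 untreated, G3BP1 AS, G3BP2 untreated and G3BP2 AS, 2 libraries each, SCG3 had numbers of 338 and 101, 203 and 51, 397 and 97, and 239 and 104. CHGB had 84 and 14, 88 and 8, 90 and 16, and 106 and 15. VGF had 12 and 33, 15 and 21, 9 and 9, and 6 and 15. These 3 genes were above 0 in all 8 libraries, and for SCG3 and CHGB the replicates differed more than the groups did in these unscaled numbers, whose libraries differ in size.

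The other 6 genes had at most 32 in any library and were at 0 in at least 1. NPY had 2 and 0, 6 and 9, 3 and 4, and 9 and 21 before scaling. After scaling, its log10 values for G3BP2 were 0.45 and 0.85 in untreated cells and 0.82 and 1.65 under AS. SCG2 had 4 and 0, 15 and 14, 17 and 0, and 10 and 24. GAL had 17 and 0, 6 and 6, 30 and 9, and 6 and 10. CHGA had 8 and 9, 8 and 0, 8 and 32, and 19 and 0. PCSK1N stayed at or below 7 and SCG5 at or below 28, each with 2 libraries at 0.

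**Figure D4:**
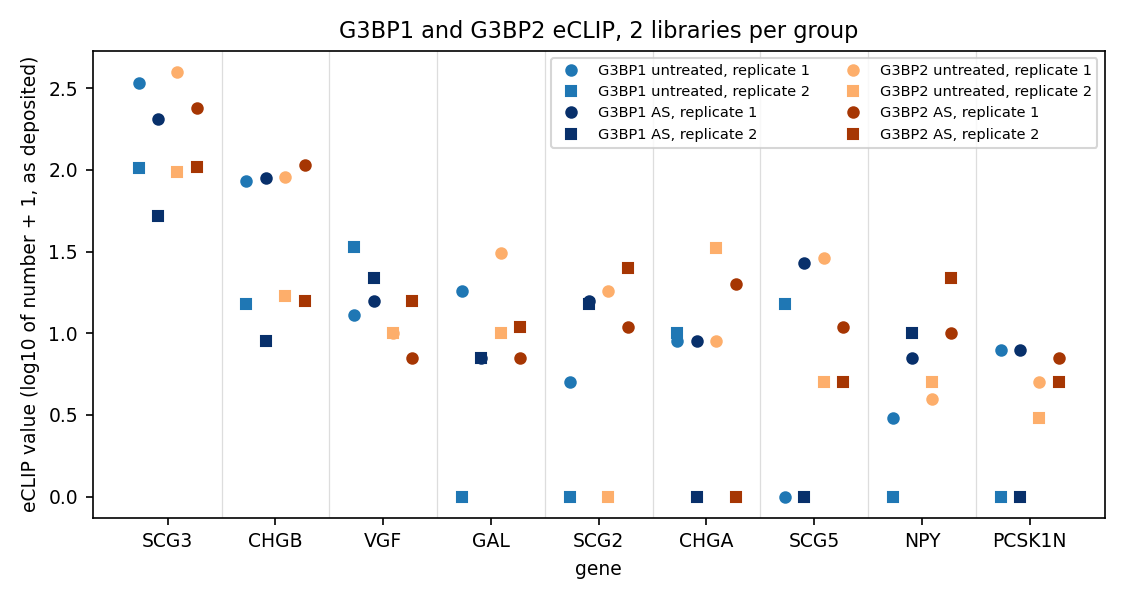
Deposited eCLIP value (log10 of a number plus 1) of the 9 genes in the 8 libraries, circles for replicate 1 and squares for replicate 2, coloured by protein and treatment. The points of SCG3 and those of CHGB in replicate 1 stand highest, and CHGB in replicate 2 lies among the other genes. The values are unscaled and the libraries differ in size, which enters the gaps between replicates. The points of the other genes lie below 1.6, some at 0.

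Libraries were scaled to the same total and compared by limma across all 19259 genes above 0 in at least 2 of 8 libraries. No gene passed an adjusted p of 0.05 in any of the 5 contrasts (0%), with 776 genes at an unadjusted p below 0.05 for AS in G3BP1 (4.03%), 525 for AS in G3BP2 (2.73%), 144 for the interaction of AS and protein (0.748%), and 159 (0.826%) and 237 (1.23%) for G3BP2 against G3BP1 in untreated and AS-treated cells. No member was among them. The nearest were NPY, higher under AS in G3BP1 by 0.95 ± 0.40 (SE) on the log10 scale, and SCG2, higher by 1.11 ± 0.48, with limma p of 0.0505 and 0.0516 and adjusted p of 0.95 for both.

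SCG3 and CHGB, with the most signal, had the narrowest estimates. Under AS SCG3 changed by −0.15 ± 0.11 (SE) in G3BP1 and by −0.02 ± 0.11 in G3BP2, and CHGB by 0.00 ± 0.21 and 0.09 ± 0.21 on the log10 scale. G3BP2 against G3BP1 differed by −0.09 ± 0.11 for SCG3 and −0.07 ± 0.21 for CHGB in untreated cells. For the other 7 genes the SE of an AS effect was between 0.38 and 0.58, so that changes of several fold were not detectable at these numbers.

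Of the 9 members, 8 had eCLIP numbers below the median of genes of like span, and VGF did not. Summed over the 8 libraries, the numbers were 1530 for SCG3, 421 for CHGB, 120 for VGF, 86 for SCG5, 84 each for CHGA, SCG2 and GAL, 54 for NPY and 30 for PCSK1N. Per kilobase of genomic span, introns included, this is 39.2 in VGF, 38.7 in SCG3 and 30.4 in CHGB, and between 1.55 in SCG5 and 15.5 in SCG2 for the others. Over 11984 genes above 1 TPM in siCtrl, Spearman's rho of the summed number was 0.833 with span and −0.203 with siCtrl TPM. Over the 9 members it was 0.475 and −0.475. Each member was set beside genes above 1 TPM in siCtrl whose span was within 20% of its own.

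VGF was above 52.4% of 307 such genes. SCG3 was above 27.0% of 1535 and CHGB above 25.2% of 1180, and SCG2 above 14.9% of 604. GAL (9.43% of 721), PCSK1N (7.68% of 547), NPY (6.43% of 747), CHGA (5.75% of 1095) and SCG5 (1.68% of 1431) lay lower. The median of the 9 was 9.43%, beside 83.2% for 6 processing enzymes, 62.1% for 29 genes of the granule membrane and exocytosis and 46.0% for 15 other peptide precursors. Among genes also within a factor of 2 of its siCtrl TPM, CHGA was above 3.08% of 65, NPY above 1 of 32, GAL above 3.64% of 110, SCG5 above 5.95% of 168 and SCG2 above 21 of 175. PCSK1N was above 6 of 46, CHGB above 22.2% of 410, SCG3 above 24.5% of 563 and VGF above 52.6% of 19. The share was higher in this match than by span alone for PCSK1N and SCG5, nearly the same for VGF and lower for the other 6. These are descriptions over sums that weigh the deeper libraries more, and how far transcript length, GC content or the processing of the numbers enters was not tested.

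The motif CCAGCCTGG, with its reverse complement CCAGGCTGG, was searched on the transcript strand because the study examined it in eCLIP peaks. Neither form occurred in the canonical transcript of any of the 9 genes, and 28.1% of 19701 coding canonical transcripts held 1. The median canonical length over all of these was 2899 nt, longer than that of 8 of the 9 members, so fewer matches can arise in them.

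Genes that act on the granin and neuropeptide precursors were counted from 4 lists. Of the enzymes that cut, trim and amidate the precursors, 7 were tested between SG and Total and all 7 were SG-enriched, where 62.9% of all genes were, with a median log2 ratio of 2.18 beside 1.51 for all genes. This was 4 of 7 with the median ratio set to 1, beside 4505 of 12778 genes. They include the carboxypeptidase CPD, from 2.51 TPM in Total to 77.2 in SG, and PAM, which amidates NPY, from 3.16 to 72.4. The convertase FURIN went from 5.64 to 37.0. PAM and FURIN were also lower in Total than in siCtrl, at 3.16 beside 14.0 and 5.64 beside 12.7 TPM, 2 of 6 tested where 19.6% of all genes were lower, and with the median ratio set to 1 this was 1 of 6. In the knockdowns 0 of 6 were called in siG3BP1, where 1.12% of all genes were higher and 1.98% lower. PCSK6 (0.252 to 1.67 TPM) was higher in siG3BP2, 1 of 7, where 1.23% of all genes were. The partners of SCG5 and PCSK1N, chosen here after their values were seen, were hardly present: PCSK2 had at most 0.0475 TPM and PCSK1 at most 0.119.

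Of the genes of the granule membrane and exocytosis, 22 of 32 were SG-enriched and none was depleted, where 62.9% and 9.45% of all genes were, with a median log2 ratio of 1.89 beside 1.51. On the scale with a median ratio of 1, 13 of 30 were enriched and 3 depleted, beside 4505 and 3271 of 12778 genes. The calcium sensor SYT1 went from 0.216 TPM in Total to 122 in SG, the priming factor UNC13B from 0.720 to 104, and the vesicle protein SV2C from 2.62 to 99.0. In Total 18 of 29 were lower than in siCtrl, SYT1 (9.26 to 0.216), UNC13B (11.4 to 0.720) and UNC13A (14.5 to 1.46) the most, where 19.6% of 12173 genes were lower. This was 10 of 29 after the same scaling, beside 1317 of 12266 genes. RPH3AL was lower in siG3BP1 (1.67 to 0.131), 1 of 29, where 1.98% of all genes were. UNC13B (11.4 to 1.64) and RPH3AL (1.67 to 0.0508) were lower in siG3BP2, 2 of 30, where 2.89% were.

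Of the other peptide precursors, 19 of 50 were tested between SG and Total. Of these, 6 were enriched and 3 depleted, where 62.9% and 9.45% of all genes were. Their median log2 ratio was 0.50 beside 1.51 for all genes. With the median ratio set to 1, 3 of 16 were enriched and 9 depleted, beside 4505 and 3271 of 12778 genes. NPW was depleted (33.3 to 5.07 TPM), as NPY and GAL were, and APLN (0.888 to 11.1) and NPFF (0.880 to 8.60) were enriched. GNRH1 (0.395 to 1.88) was higher in siG3BP2, 1 of 16, where 1.23% of all genes were. None was called in siG3BP1, where 1.12% of all genes were higher and 1.98% lower. In Total against siCtrl NUCB2 was higher (3.69 to 10.7) and NPFF lower (2.80 to 0.880), of 15 tested, where 1.28% and 19.6% of all genes were. Of the 10 receptors of NPY, galanin and related peptides only NPY2R reached 1 TPM in a library, and it was SG-enriched (0.434 to 8.52 TPM).

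Under AS, where 1.51% of all transcripts were called higher and 0.47% lower, the called transcripts of these lists were 1 of 105 for the processing enzymes (CPD, 1.53 to 4.50), 2 of 49 for the other precursors (NPW, 0.189 to 1.56, and NUCB2, 0.293 to 1.90), and 4 of 251 for the granule membrane and exocytosis, of CADPS (0.562 to 2.82), SYT5 (0.457 to 2.16), RAB3A (0.693 to 2.61) and PTPRN (0.552 to 2.28). All 7 were called higher and lay below 5 in value, none was called lower, and no receptor transcript was tested. The called transcripts of NPW, NUCB2 and SYT5 are annotated as coding. That of CPD is a nonsense-mediated decay transcript, those of RAB3A and PTPRN are retained-intron transcripts, and that of CADPS has no defined coding sequence.

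Likeness was taken over the log2 ratios of the 4 TPM comparisons. Among 7035 genes above 10 TPM, those nearest to VGF were RGS14, NEFM and ZDHHC1, at Euclidean distances of 0.18, 0.19 and 0.22. VGF was the member with the most TPM in siCtrl. Among the members, CHGA and SCG3 were nearest to each other at 0.56, followed by CHGB and VGF at 0.80 and by PCSK1N and GAL at 0.86. SCG5 stood apart, at 3.43 from its nearest member GAL. The comparisons share libraries, and nothing is read from these distances beyond the likeness of values.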

How the data were processed

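Per the submitters' processing notes and the study's methods, the authors aligned reads to hg38 with HISAT2 2.1.0 and estimated TPM with StringTie. They deposited TPM for protein-coding genes of the 5 siRNA, Total and SG libraries. The deposited rRNA-depleted values are headed TPM but sum to more than TPM can, so they were treated as a signal per transcript. Of the values above 0, 97.2% gave whole reads within 0.02. The authors deposited eCLIP values on a log10 scale, without scaling between libraries. SMInput libraries were not analysed here.

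Genes and transcripts were matched by Ensembl ID to GENCODE on GRCh38, another release than the authors' (19910 of 19942 genes, 91.1% of transcripts). Ratios used TPM + 1 or value + 1, thresholds of 2 and 0.5 and a minimum of 1. eCLIP values were turned back to numbers, scaled to the same library total and compared by limma 3.58.1 in R 4.3.3 (log10 of scaled number + 1, intensity trend, 4 groups, Benjamini-Hochberg at 0.05 over all genes); the methods speak of duplicate experiments, but whether these were separate cultures is not given in the sources used here, so p-values may measure technical spread. Both procedures were run on simulated data with large changes set in well-covered genes. This checks the code and says nothing about power for the members. Python 3.11.15 with pandas 2.3.3, numpy 2.4.6 and scipy 1.17.1 did the rest.

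The members and gene lists were chosen with earlier results of these data known. Beside the members, G3BP1 and G3BP2, at most 3 called genes per list and comparison are named, those with the largest log2 ratios. The lists were processing enzymes, granule membrane and exocytosis, other peptide precursors, receptors, and markers of noradrenergic neuroblastoma and of other cell types. Alternatives were other pseudocounts, thresholds and minimums, scaling to the median ratio, unscaled eCLIP values, a replicate block, no filter and leaving out each eCLIP library. Protein sequences were not used here.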

Additional observations from a re-analysis of the deposited data

How the results depend on the processing

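Counts of members moved by more than 1.5 times under few settings. With the median ratio set to 1, SG-enriched members went from 2 to 0 and SG-depleted members from 3 to 6, the log2 ratio of CHGB in SG against Total turned to −0.062, and AS-called member transcripts went from 2 to 1. With a fold threshold of 1.5, members lower in Total than in siCtrl went from 3 to 6. Over all features, with a pseudocount of 0.1 the counts higher and lower were 289 and 425 for siG3BP1, 273 and 638 for siG3BP2 and 5947 and 1768 for AS, and 272 were higher in Total. With a threshold of 1.5 they were 455 and 765, 418 and 1186, 498 and 4803 for Total, and 10566 and 2003 for AS. With the median ratio set to 1 they were 4505 and 3271 for SG, 445 and 1317 for Total, and 726 higher under AS.

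In eCLIP, 0 genes were called in each contrast. Without a filter 2 were called for AS in G3BP1, 5 for AS in G3BP2, and 1 each for G3BP2 against G3BP1 in untreated and AS-treated cells. Leaving out 1 library gave 0 to 205 genes for AS in G3BP1, 0 to 24 for the interaction and 0 to 176 for G3BP2 against G3BP1 under AS, the highest in each case without replicate 1 of G3BP1 under AS, where the lone library left is assumed to vary like the other groups. Unscaled values, a pseudocount of 10 and the replicate block each called 0 genes in all 5 contrasts. Same-numbered libraries deviated with correlations between 0.060 and 0.416, and with 2 numbers this does not show that they are pairs. No member was called in any of 540 values under 12 settings, of which 10 had an unadjusted limma p below 0.05 and the lowest adjusted p was 0.273. Of these 540, 73 had the opposite sign to the reported value. In eCLIP all members but SCG3 and CHGB had numbers of at most 33 per library, and each group had only 2 libraries for every member. TPM give no counting error.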
